A study of Mus musculus with 8 samples.

Results

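Mitosis, spindle and kinetochore genes were described in RNA libraries of hepatic stellate cells, which store vitamin A in the healthy liver and make matrix in the injured one. The 42 genes of the group were taken by symbol, from the cyclins and kinases that start mitosis to the motors of the spindle and the proteins of the kinetochore. Of these, 5 (Nek2, Cenpf, Cenpl, Sgo2a and Nsl1) had a row in all 8 tables as used here, which share 1933 gene rows. Nuf2 had a row in 6 of the tables, those of the 4 fl/fl libraries and of KO replicates 3 and 4. The other 36 members, Mki67, Top2a, Cdk1 and the B-type cyclins among them, were not analysed here. All 1830 shared rows with a symbol lie on chromosome 1 in the annotation used for symbols, as do 7 of the 42 members.

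The cells came from male mice with steatohepatitis, which had received Western diet (21% fat, 20% protein, 50% carbohydrate) for 20 weeks from 4 weeks of age and were killed in week 24. One group, AREL1HSC-KO, lacked AREL1 in stellate cells (called KO below), and the other, AREL1fl/fl, carried the floxed allele (called fl/fl). The AREL1 protein ligates ubiquitin and is known as an inhibitor of apoptosis. Each group had 4 libraries, grouped by title, since 3 of the KO genotype fields carry another digit in the gene name. The labels do not name the promoter that drove the deletion, nor do they say whether each library came from its own mouse, so the p-values rest on a spread between libraries that may be technical. Arel1 lies on chromosome 12 and was not analysed here, so the genotype was not checked on the targeted gene.

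Mitosis begins when cyclin-dependent kinase 1 becomes active at the end of G2, and the duplicated centrosomes part to form the poles of the spindle. On each chromosome the centromere carries a kinetochore, whose inner proteins sit on centromeric chromatin and whose outer proteins hold spindle microtubules. Most genes for these proteins are transcribed in G2 and mitosis, largely under the MuvB complex with B-MYB and FOXM1, so their RNA is highest in cells in those stages. In the injured liver stellate cells leave quiescence and can divide.

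Gene-assigned reads numbered 19271004 to 25165289 in the KO libraries and 17619387 to 19663030 in the fl/fl libraries. Unmapped reads made up 1.442% to 1.575% of reads in KO and 1.039% to 1.193% in fl/fl, so the groups did not overlap in this measure. Nor did they overlap in reads on no annotated gene, at 3.928% to 4.139% in KO and 4.298% to 4.343% in fl/fl. The shares of multimapping and of ambiguous reads did overlap. In fl/fl, replicate 4 was unlike replicates 1 to 3. On the first principal component the KO libraries lay at 2.05 to 2.21, fl/fl replicate 4 at -0.738 and fl/fl replicates 1 to 3 at -2.72 to -2.5. No marker of the stellate cell list had a row in all tables. Rgs5, a marker of stellate cells and pericytes held by 3 fl/fl tables, had 7 to 12 reads there. Of 27 leukocyte markers 10 had rows, with a summed level of 3.44 to 3.97 CPM in KO and 2.83 to 3.83 CPM in fl/fl, most of it from Batf3, and Ctla4 and Xcl1 had no read. Of 19 hepatocyte markers 2 had rows, with 0.286 to 0.662 CPM in KO and 0.343 to 0.627 CPM in fl/fl, and C4bp had no read. The single cholangiocyte marker with a row, Pkhd1, had 1 read in all, and no gene of the endothelial list used here had a row. Cd34, the only gene of the portal fibroblast and mesothelium list with a row, stood at 83.4 to 87.3 CPM in KO and 79.4 to 86.2 CPM in fl/fl. The part of library quality and of other cells in the results was not tested.

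Of the 5 mitosis genes with a row in all tables, all of which passed the filter on low counts, 4 fell in KO stellate cells and none rose by the quasi-likelihood test of edgeR at an adjusted p under 0.05. The 4 were Nek2, Cenpf, Cenpl and Sgo2a, and their falls, of 11.4% to 12.9%, lay close together. Over all 420 genes tested, 37.6% passed, 19.3% lower and 18.3% higher (81 and 77 genes). Only 321 of the 420 averaged at least 5 CPM, as all 5 members did, and small changes are harder to call in genes with few reads. The share among genes of like level was not computed. That split was 52 lower and 120 higher with upper-quartile scaling, and 65 lower and 100 higher with library totals alone. Nsl1 did not pass the test, and Nuf2, tested in 6 libraries, fell. The median log2 fold change was -0.18 over the 5 genes and 0.0034 over the 420. In bulk RNA, fewer dividing cells and less of these RNAs per cell cannot be told apart.

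**Figure D1:**
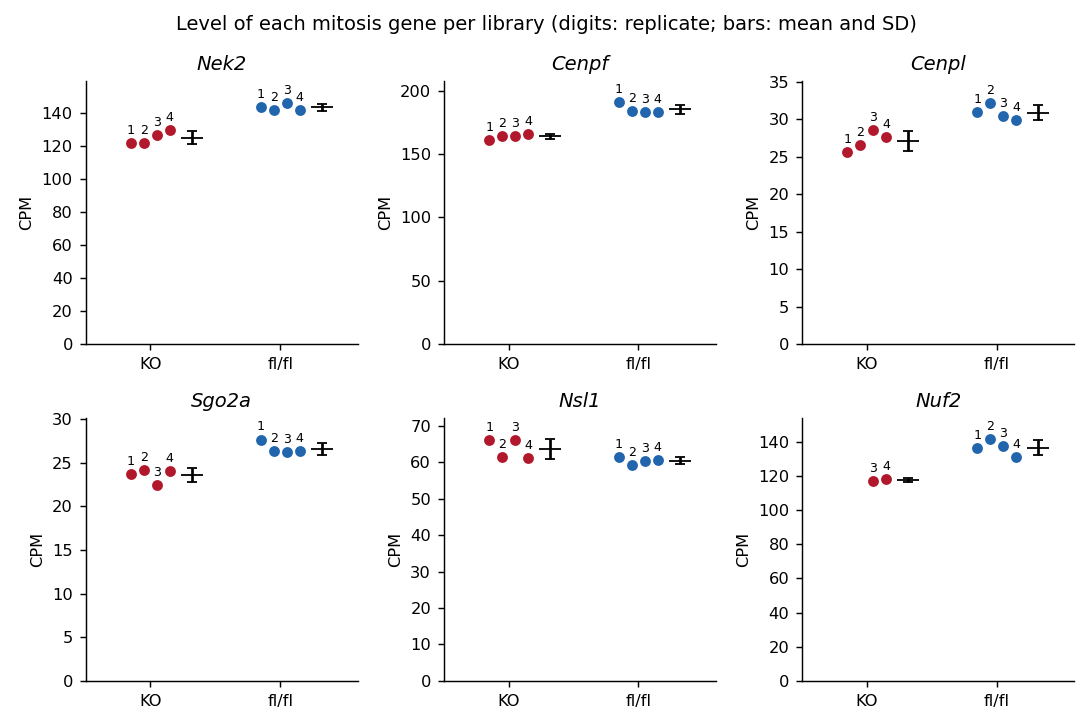
The level of each mitosis gene (y axis, CPM from 0) is plotted for every library of KO (red) and fl/fl (blue), with the replicate number above each point and the mean and SD as a black bar. The KO points lie below all fl/fl points for Nek2, Cenpf, Cenpl, Sgo2a and, with 2 KO libraries, Nuf2, and the groups overlap for Nsl1.

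Nek2 (ENSMUSG00000026622) encodes a centrosomal kinase that loosens the link between the duplicated centrosomes before the spindle forms. Its level, in CPM, the read count scaled to a common total of gene-assigned reads, was 122.1, 122, 126.6 and 129.9 in KO replicates 1 to 4, against 143.9, 141.8, 146.4 and 141.8 in fl/fl replicates 1 to 4. The highest KO library lay below the lowest fl/fl library, which was so for 16.7% of the 420 genes (31.4% had groups apart in either direction). Nek2 averaged 125.1 ± 3.82 CPM in KO and 143.5 ± 2.21 CPM in fl/fl (SD, n = 4 each), a fall of 12.9% (log2 fold change -0.20, SE 0.028, edgeR adjusted p = 2.15e-06). In the annotation used for symbols 6.6% of its exon length overlaps a predicted gene, Gm38037, on the opposite strand.

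Cenpf (ENSMUSG00000026605) encodes CENP-F, a large coiled-coil protein that joins the outer kinetochore in G2 and binds microtubules and dynein regulators. It stood at 161.2, 164.6, 164.6 and 166 CPM in KO replicates 1 to 4, against 190.8, 183.8, 183.4 and 183.4 CPM in fl/fl replicates 1 to 4. The groups did not overlap, and fl/fl replicate 1 was the highest library. The means of 164.1 ± 2.01 CPM in KO and 185.4 ± 3.6 CPM in fl/fl (SD, n = 4 each) gave a fall of 11.5% (log2 fold change -0.18, SE 0.026, edgeR adjusted p = 3.38e-06). Leaving out that high library gave -0.16.

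Cenpl (ENSMUSG00000026708) encodes CENP-L, a subunit of the constitutive centromere-associated network, the inner kinetochore layer built on CENP-A chromatin. Its levels were lower, at 25.56, 26.53, 28.6 and 27.6 CPM in KO replicates 1 to 4 and 30.98, 32.15, 30.47 and 29.93 CPM in fl/fl replicates 1 to 4. All KO libraries lay below all fl/fl libraries, and KO replicate 3 and fl/fl replicate 4 were nearest to each other. Cenpl averaged 27.07 ± 1.31 CPM in KO and 30.88 ± 0.945 CPM in fl/fl (SD, n = 4 each), a fall of 12.6% (log2 fold change -0.19, SE 0.049, edgeR adjusted p = 0.00262). The call was lost with forward-strand counts (log2 fold change -0.10, adjusted p = 0.298), while reverse-strand counts gave -0.30, and the adjusted p ranged from 0.000266 to 0.298 over the alternatives. No other gene overlaps its exons, and the reverse column held 47.2% to 52.9% of its reads. Each strand column is thus a near-equal part of the same reads, with a larger SE (0.067 forward and 0.072 reverse).

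Sgo2a (ENSMUSG00000026039) encodes shugoshin 2, a centromere protein of a family known for guarding cohesin. Its level was 23.72, 24.16, 22.43 and 24.06 CPM in KO replicates 1 to 4, against 27.68, 26.33, 26.25 and 26.33 CPM in fl/fl replicates 1 to 4. Again every KO library was below every fl/fl library. The fall was 11.4%, with 23.59 ± 0.796 CPM in KO and 26.65 ± 0.692 CPM in fl/fl (SD, n = 4 each), and passed the edgeR test (adjusted p = 0.00716, log2 fold change -0.18, SE 0.050). The call was lost with upper-quartile scaling alone of the 19 alternatives (log2 fold change -0.12, adjusted p = 0.0606), and the lowest adjusted p was 5.77e-06, with forward-strand counts. Its count is the least certain of the members, because 35% of its exon length overlaps Kctd18 on the opposite strand. The 2 strand columns together held 3.48 to 3.79 times the reads of the either-strand column, which leaves out reads that touch both genes. The strand columns do count reads in the shared stretch, and these may come from Kctd18. The low adjusted p with forward-strand counts may therefore not rest on Sgo2a reads alone.

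Nuf2 (ENSMUSG00000026683) encodes a subunit of the NDC80 complex, the part of the outer kinetochore that grips microtubule ends. In the 6 libraries whose tables hold it, Nuf2 stood at 116.9 and 118.3 CPM in KO replicates 3 and 4, against 136.4, 141.5, 137.8 and 130.9 CPM in fl/fl replicates 1 to 4. Both KO libraries lay below the 4 fl/fl libraries. With 2 KO libraries the groups separate more readily than with 4. The share of genes with such a gap was not computed for these 6 libraries, and the share given under Nek2 does not apply. In a fit of these 6 libraries alone the fall was 13.9%, with means of 117.6 ± 0.921 CPM in KO (SD, n = 2) and 136.7 ± 4.4 CPM in fl/fl (SD, n = 4). The edgeR adjusted p was 8.31e-05 over 430 genes, of which 10.9% fell (log2 fold change -0.22, SE 0.037). Cenpl lost its call in that smaller fit (log2 fold change -0.14, adjusted p = 0.107), and Nek2, Cenpf and Sgo2a kept theirs.

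Nsl1 (ENSMUSG00000062510) encodes a subunit of the MIS12 complex, which joins the inner kinetochore to the NDC80 complex. Unlike the genes above it did not fall. It stood at 65.98, 61.36, 66.18 and 61.15 CPM in KO replicates 1 to 4, against 61.44, 59.22, 60.36 and 60.61 CPM in fl/fl replicates 1 to 4. KO replicates 1 and 3 were above every fl/fl library, while replicates 2 and 4 were within the fl/fl range. The means were 63.67 ± 2.79 CPM in KO and 60.41 ± 0.917 CPM in fl/fl (SD, n = 4 each), and the difference did not pass the threshold (log2 fold change 0.08, SE 0.037, edgeR adjusted p = 0.11). It passed with upper-quartile scaling (log2 fold change 0.13, adjusted p = 0.00793) and with library totals alone (0.11, adjusted p = 0.0209).

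**Figure D2:**
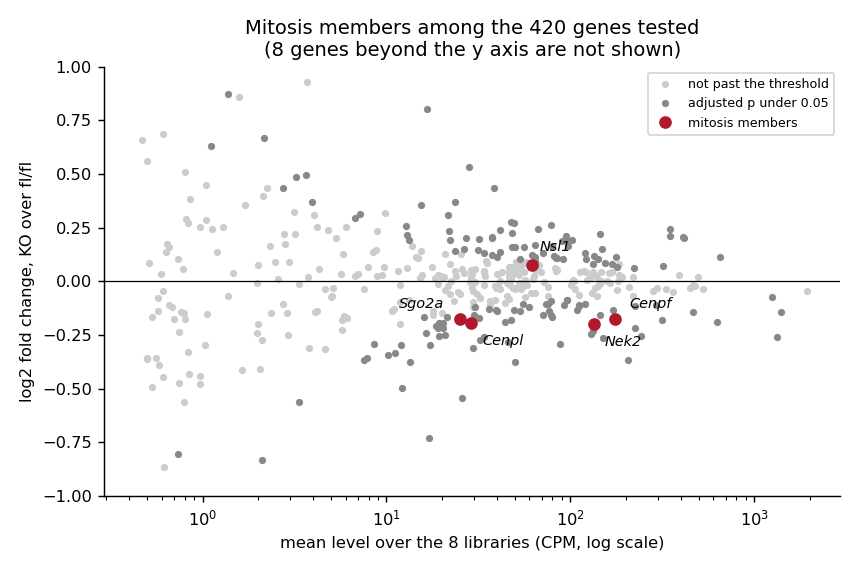
Each point is 1 of the 420 genes tested, at its mean level (x axis, CPM on a log scale) and its log2 fold change of KO over fl/fl (y axis, cut at -1 and 1, which leaves out 8 genes). Nek2, Cenpf, Cenpl and Sgo2a (red) lie between -0.20 and -0.18 among the genes that passed the test (dark grey), and Nsl1 lies at 0.08.

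The falls of the mitosis genes lay near the middle of all falls. The 81 genes that fell had a median fall of 12.7%, with quartiles of 9.07% and 18.5%. Leaving out fl/fl replicate 4, the library that stood apart, gave log2 fold changes of -0.21 for Nek2, -0.18 for Cenpf, -0.21 for Cenpl and -0.18 for Sgo2a (edgeR adjusted p = 1.8e-12, 1.61e-11, 0.000266 and 0.00318), and 0.07 for Nsl1 (0.0876). Over the 166 genes that were called without that library and averaged at least 5 CPM, its level lay, in the median, 0.466 of the way from the mean of fl/fl replicates 1 to 3 towards KO. For the mitosis genes that share of the way was 0.12 for Nek2, 0.117 for Cenpf, 0.135 for Sgo2a, 0.306 for Cenpl and, in the 6 libraries, 0.366 for Nuf2. The 166 genes were called from the libraries that set both ends of this scale. Such a choice can by itself place a left-out library nearer to KO. No other fl/fl library was placed in this way.

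Promoter sequences are shown for the falling genes with 1 start in the RefSeq table, because many genes of late cell cycle stages share 2 promoter elements. These are the cell cycle genes homology region (CHR, searched as TTTGAA or TTCGAA), which the MuvB complex binds, and the CCAAT box, which NF-Y binds. Each window runs from 250 bases before to 30 bases after the RefSeq start (GRCm38.p6), at chr1:189688057-189688336 (minus strand) for Cenpf, chr1:191821223-191821502 (plus) for Nek2, chr1:161070517-161070796 (plus) for Cenpl and chr1:169531435-169531714 (minus) for Nuf2. Capitals mark both motifs, searched on both strands, so that a CCAAT box on the other strand reads ATTGG. A CHR on the other strand reads TTCAAA.
Cenpf: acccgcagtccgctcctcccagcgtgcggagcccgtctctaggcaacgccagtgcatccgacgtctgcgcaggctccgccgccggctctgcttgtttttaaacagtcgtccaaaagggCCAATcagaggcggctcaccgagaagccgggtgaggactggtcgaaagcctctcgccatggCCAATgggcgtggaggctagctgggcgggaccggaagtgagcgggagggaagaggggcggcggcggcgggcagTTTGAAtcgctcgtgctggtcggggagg
Nek2: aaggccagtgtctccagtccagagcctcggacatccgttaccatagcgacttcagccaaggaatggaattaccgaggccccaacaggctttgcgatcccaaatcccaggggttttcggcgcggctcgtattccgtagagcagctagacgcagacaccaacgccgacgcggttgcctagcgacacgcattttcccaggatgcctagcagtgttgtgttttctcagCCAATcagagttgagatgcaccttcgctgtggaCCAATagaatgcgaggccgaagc
Cenpl: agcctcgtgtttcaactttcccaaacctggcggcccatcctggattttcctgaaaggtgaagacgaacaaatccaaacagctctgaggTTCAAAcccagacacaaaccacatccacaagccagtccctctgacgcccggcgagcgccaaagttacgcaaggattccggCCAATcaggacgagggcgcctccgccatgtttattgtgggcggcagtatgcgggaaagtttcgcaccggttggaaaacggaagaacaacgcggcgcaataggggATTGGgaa
Nuf2: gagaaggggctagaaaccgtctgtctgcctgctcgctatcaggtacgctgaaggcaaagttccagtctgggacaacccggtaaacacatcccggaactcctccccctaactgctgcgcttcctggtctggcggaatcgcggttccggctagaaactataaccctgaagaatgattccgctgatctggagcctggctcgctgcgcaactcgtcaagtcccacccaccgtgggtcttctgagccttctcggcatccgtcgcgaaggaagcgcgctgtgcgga

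The motifs given here are matches to the letters searched, at any place in the window, and binding at them was not tested. The Cenpf window held a CHR match at position 3 after the start and CCAAT boxes at positions -132 and -71. Nek2 had CCAAT boxes at positions -26 and 8 and no CHR in the window. Cenpl had a CHR match on the other strand at position -162, upstream of its CCAAT boxes at positions -82 and 23. Nuf2 had neither motif in these 280 bases, which says nothing on the factors themselves. Both windows that the table gives for Sgo2a hold 1 CCAAT box and no CHR. Among 32851 promoter windows of the same length, 18.4% held a CHR, 36.1% a CCAAT box and 11.1% CCAAT boxes at 2 or more places. The promoter table had entries for 5 of the 6 genes, all but Nsl1.

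Levels of different genes were set side by side per kilobase of exon length in GENCODE M21, which may not be the annotation the reads were counted on. On that scale Nek2 was the most abundant of the mitosis genes, at 27.7 ± 0.85 CPM per kb in KO and 31.8 ± 0.49 CPM per kb in fl/fl (SD, n = 4 each), rank 47 of the 420 genes in fl/fl. Next came Nuf2, at 18.5 ± 0.15 CPM per kb in KO (SD, n = 2) and 21.6 ± 0.69 CPM per kb in fl/fl (SD, n = 4), set to the totals of the 6 libraries that hold it. Below it were Cenpf, at 10.63 ± 0.13 CPM per kb in KO and 12.01 ± 0.23 in fl/fl, and Nsl1, at 12.01 ± 0.53 CPM per kb in KO and 11.39 ± 0.17 in fl/fl, so this pair changed places between the genotypes. In each genotype the pair differed by more than the SD of either. Cenpl was lowest, at 4.75 ± 0.23 CPM per kb in KO and 5.42 ± 0.17 in fl/fl, near the median of 5.17 CPM per kb over the 420 genes in fl/fl. Sgo2a, whose level is understated because of its overlap, is left out of this order.

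Ratios of reads within a library do not depend on scaling between libraries, and they were used to compare the members with each other. Among Nek2, Cenpf, Cenpl and Sgo2a, none of the 6 ratios separated the genotypes. The differences between KO and fl/fl in the log2 ratio ran from -0.022 (SE 0.024, Nek2 over Cenpf) to 0.015 (SE 0.038, Cenpf over Cenpl). Such small differences follow from the close fold changes of these 4 genes in the same libraries and are no separate evidence. The ratios of these genes to Nsl1 were lower in all 4 KO libraries, but with 4 libraries against 4 no p under 0.0286 can be had, and none passed after adjustment over the 10 ratios. The log2 ratio of Nek2 to Nsl1 was 0.98 ± 0.085 in KO and 1.25 ± 0.026 in fl/fl (SD, n = 4 each), a difference of -0.27 (SE 0.045, two-sided exact permutation p = 0.0286, 0.0714 after Benjamini-Hochberg adjustment). For Cenpf and Cenpl over Nsl1 the differences were -0.25 and -0.27, and for Nsl1 over Sgo2a the difference was 0.25, each with the same p.

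**Figure D3:**
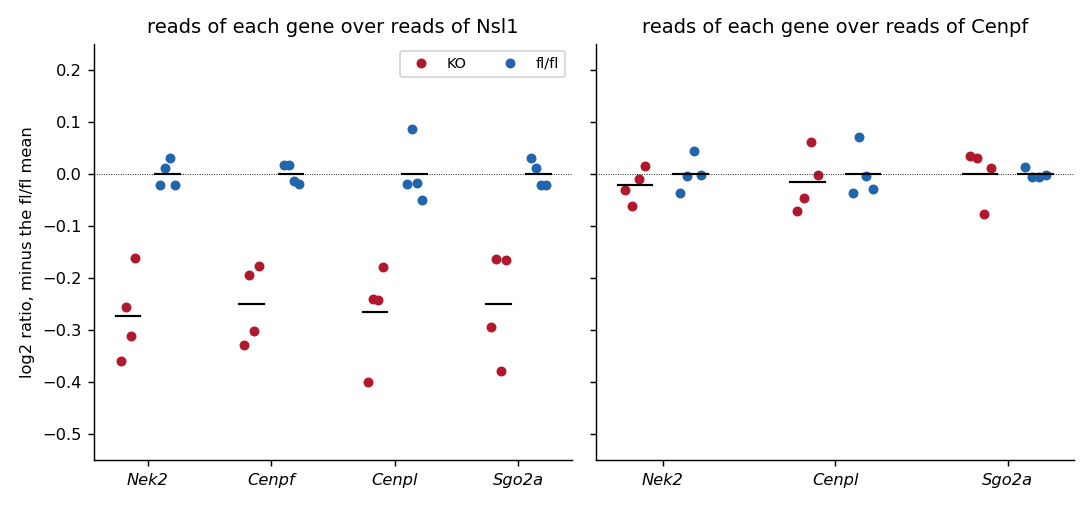
The log2 ratio of reads within each library, minus the fl/fl mean (y axis), is plotted for mitosis genes over Nsl1 (left) and over Cenpf (right), with KO in red, fl/fl in blue and the group means as black lines. Over Nsl1 all KO libraries lie lower, by 0.25 to 0.27 in the mean, and over Cenpf the groups overlap.

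DNA replication takes place in S phase, the stage before G2. Of 47 listed replication genes 5 had rows and were tested, and in KO 3 rose (Mcm3, Mcm6 and Orc2) and none fell, beside 18.3% of all genes that rose. Both MCM genes, which code for parts of the helicase that opens DNA at replication forks, rose. Mcm3 and Mcm6 stood at 438.9 ± 10.4 and 447.1 ± 4.52 CPM in KO and 380.5 ± 15.1 and 388.6 ± 13.2 CPM in fl/fl (SD, n = 4 each; edgeR adjusted p = 3.68e-07 and 1.06e-07). Orc2, of the origin recognition complex, rose by 7.9%, to 87.82 ± 3.93 CPM in KO against 81.39 ± 2.45 CPM in fl/fl (adjusted p = 0.0133). Orc2 no longer passed on reverse-strand counts (adjusted p = 0.349), without KO replicate 4 (0.068), without fl/fl replicate 1 (0.0774) and in the 6 libraries that hold Nuf2 (0.0655). In the annotation 29.8% of its exon length overlaps Nif3l1 on the opposite strand. Prim2, a primase subunit, stood at 70.2 ± 1.05 CPM in KO and 68.06 ± 1.25 CPM in fl/fl (adjusted p = 0.314). Nabp1, a single-stranded DNA-binding protein gene, stood at 20.42 ± 0.364 CPM in KO and 21.05 ± 0.395 CPM in fl/fl (adjusted p = 0.583). In fl/fl replicate 4 Mcm3 stood at 402.9 CPM, closer to KO than in the other fl/fl libraries, at 371.3 to 376.5 CPM.

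**Figure D4:**
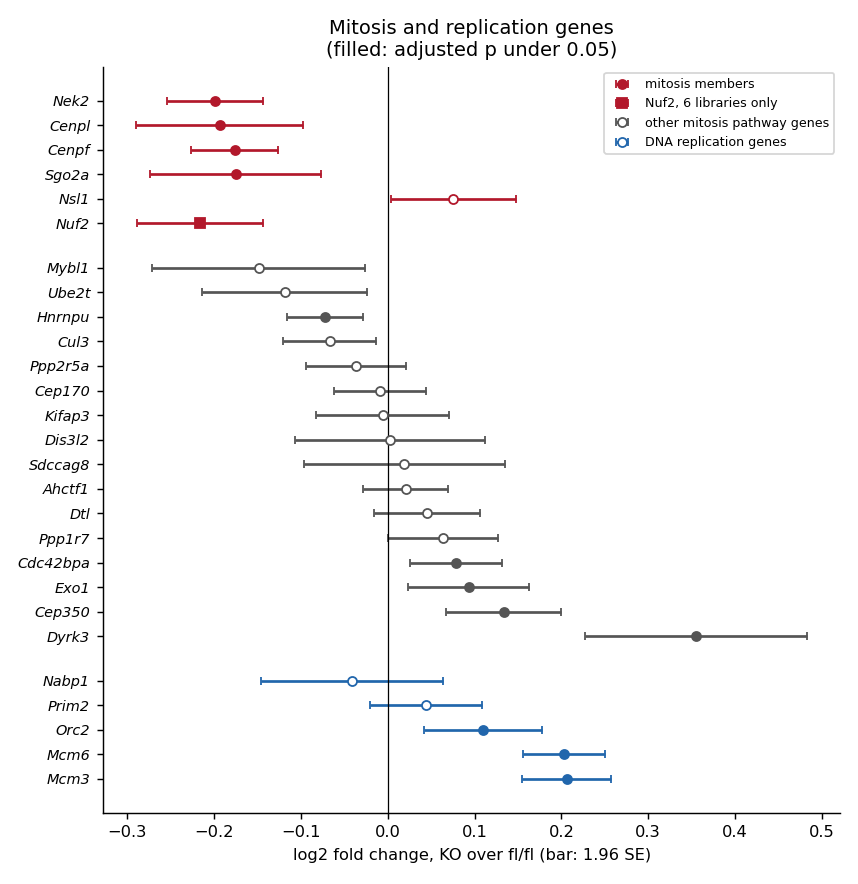
The log2 fold change of KO over fl/fl (x axis, with bars of the 95% confidence interval by normal approximation) is shown for the mitosis members (red), genes of the wider mitosis list (grey) and DNA replication genes (blue), filled where the adjusted p is under 0.05. Nek2, Cenpl, Cenpf, Sgo2a and Nuf2 lie left of 0, Nsl1, Mcm3 and Mcm6 right of 0, and the genes of the wider list on both sides with Dyrk3 farthest right at 0.35.

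A wider list of 213 genes covers mitosis and chromosome structure and also holds genes of DNA repair and replication control. Of these, 16 had rows and were tested, among them Exo1, Ube2t and Dtl, which act in repair or replication control. In all, 4 rose, 1 fell and 11 did not pass, with a median log2 fold change of 0.011, beside 18.3% higher and 19.3% lower over all genes. Dyrk3, a kinase that dissolves condensates when cells enter mitosis, rose by 27.9%, to 16.81, 18.51, 16.75 and 17.49 CPM in KO replicates 1 to 4, against 13.53, 13.85, 12.66 and 14.42 CPM in fl/fl replicates 1 to 4. Its groups did not overlap (log2 fold change 0.35, SE 0.065, edgeR adjusted p = 8.94e-05).

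Cep350, a centrosomal protein gene that helps anchor microtubules, rose by 9.7%, with 74.64 ± 2.2 CPM in KO and 68.07 ± 1.31 CPM in fl/fl (SD, n = 4 each; edgeR adjusted p = 0.00262). This call was lost with forward-strand counts (adjusted p = 0.0923). Exo1, an exonuclease of mismatch repair and end resection, rose by 6.66%, and Cdc42bpa, a kinase that acts on myosin, by 5.59% (edgeR adjusted p = 0.0398 and 0.0225). All KO libraries of both lay above all fl/fl libraries, as they did in 14.8% of the genes tested, but the calls were lost under 11 and 6 of the 19 alternatives, with adjusted p of up to 0.331 and 0.482. For Exo1 these included leaving out KO replicate 1 or 3 or fl/fl replicate 1, 2 or 3 (adjusted p of 0.113, 0.156, 0.135, 0.0718 and 0.0736), and for Cdc42bpa KO replicate 1 or 2 or fl/fl replicate 2 or 3 (0.0992, 0.0677, 0.0671 and 0.0748).

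Hnrnpu, an abundant nuclear RNA-binding protein gene whose product also binds spindles, was the only one of the 16 that fell, by 4.91%, with 1214 ± 28.7 CPM in KO and 1277 ± 30.6 CPM in fl/fl (SD, n = 4 each; edgeR adjusted p = 0.0108). The groups overlapped, and the call was lost with upper-quartile scaling (log2 fold change -0.021, adjusted p = 0.526), with library totals alone (0.193), without KO replicate 4 (0.0664) and in the 6 libraries that hold Nuf2 (0.0502). The genes that follow did not pass and are named after their values were seen. Mybl1, the gene for A-MYB, a relative of the B-MYB factor of mitotic genes, stood at 19.08 ± 0.952 CPM in KO and 21.09 ± 1.72 CPM in fl/fl (edgeR adjusted p = 0.0612). Ube2t, a ubiquitin-conjugating enzyme of the Fanconi anaemia pathway, stood at 28.51 ± 0.773 CPM in KO and 30.96 ± 1.63 CPM in fl/fl (adjusted p = 0.0546), and Cul3, a ubiquitin ligase scaffold that helps place Aurora B, at 214.9 ± 7.24 CPM in KO and 225.1 ± 5.69 CPM in fl/fl (adjusted p = 0.0546). The other 8, Cep170, Sdccag8, Kifap3, Ahctf1, Dtl, Dis3l2, Ppp1r7 and Ppp2r5a, had log2 fold changes between -0.04 and 0.06.

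The genes with the pattern most like each member over the 8 libraries were sought among 414 other genes by the root mean square difference of centred log2 CPM. Centring was over both groups together, so a gene with a like fold change and many reads comes out near. Shared regulation was not tested. Capn2, which encodes the catalytic subunit of a calcium-dependent protease, was nearest to Cenpf (0.019), Sgo2a (0.035) and Cenpl (0.044), and stood at 297.3 ± 3.81 CPM in KO and 336.4 ± 7.91 CPM in fl/fl. Col5a2, a fibrillar collagen gene, was nearest to Nek2 (0.028), with 589.5 ± 5.02 CPM in KO and 673 ± 6.82 CPM in fl/fl. Rps6kc1, a kinase-like gene, was nearest to Nsl1 (0.03), with 36.32 ± 1.84 CPM in KO and 34.25 ± 1.02 CPM in fl/fl.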

How the data were processed

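The labels' protocols describe digestion of livers with pronase and collagenase, an OptiPrep gradient for stellate cells and an mRNA kit named as stranded. The deposited tables hold whole-number read counts per gene, 1 per library, laid out as STAR writes them. Tools named in the submitters' processing notes are fastp, STAR 2.7.10a and DESeq2 1.38.0, with the builds GRCm38 and GRCm39, and no source used here names the annotation. The rows used held 3.2% to 3.28% of gene-assigned reads, so library totals were derived from the summary rows of each table as a lower limit (the upper limit is 2.51% to 2.65% higher). Reverse and forward counts stood in a ratio of 0.985 to 1.02, so either-strand counts were used, in which a read on 2 overlapping genes counts for neither.

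Symbols came from GENCODE M21. Genes that passed filterByExpr (420) were fitted with edgeR 4.0.16 under R 4.3.3 by TMM and the robust quasi-likelihood F test, with Benjamini-Hochberg adjustment over the 420 and a threshold of 0.05, and the SE was taken from the F statistic. CPM refer to the TMM-adjusted total. The scripts were tested on simulated data with known changes. There, 50% of genes changed 1.1-fold and 72% of genes changed 1.2-fold were called, beside 2.31% of unchanged genes. A gene that did not pass may therefore still differ by a small amount. No pair of libraries of 1 group agreed within sampling noise (largest chi-square p = 1.77e-07 in KO and 2.57e-07 in fl/fl). Alternatives were DESeq2 1.42.0, other scalings, filters, count columns and library sizes, a replicate block and leaving out each library. By the rule for named genes, all members and replication genes in the rows and the pathway genes that passed are named; so is the nearest gene to each member. The members and lists were chosen with earlier results of these data known.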

Additional observations from a re-analysis of the deposited data

Results flagged for a closer look

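In groups of 4 libraries, a library is given here when its distance from its nearest neighbour, as a share of the whole range, passed Dixon's critical value at 95%. This was so in 4 of 33 groups of values examined, where chance flags about 1 in 20, or 1.6. In fl/fl replicate 1, Cenpf stood at 190.8 CPM against 183.4 to 183.8 CPM in the other fl/fl libraries, a gap of 0.949 of the range, and Sgo2a at 27.68 CPM against 26.25 to 26.33 CPM, a gap of 0.941. Both values lie farther from KO than the other fl/fl libraries do, and without this library both genes still fell (log2 fold change -0.16 and -0.15, edgeR adjusted p = 0.000106 and 0.0352). The same library had the most gene-assigned reads of its group, 19663030 against 17619387 to 17642249. In fl/fl replicate 4, Mcm3 stood at 402.9 CPM against 371.3 to 376.5 CPM, a gap of 0.836. The part of depth in these values was not tested.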

How the results depend on the processing

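Nek2 and Cenpf fell and passed the test under all 19 alternatives (log2 fold change -0.22 to -0.15 and -0.19 to -0.12), as Mcm3 and Mcm6 rose under all 19. Cenpl and Sgo2a kept their direction in all 19, with the lost calls given beside them. The number of mitosis genes that fell was 4 without any 1 library and 3 or 4 otherwise, and the number that rose was 0, except 1 (Nsl1) with upper-quartile scaling or library totals alone. Under those scalings the median over all genes was 0.055 and 0.036, against 0.0034. Over all genes tested, 77 rose and 81 fell, against 120 and 52 with upper-quartile scaling and 100 and 65 with library totals alone. The 6 libraries that hold Nuf2 gave 83 calls, 36 higher and 47 lower, in a fit with fewer samples. Leaving out 1 library gave 132 to 191 calls, 58 to 95 higher and 71 to 96 lower. Of the 16 genes of the wider mitosis list, which holds repair genes too, 4 rose, but 7 did with upper-quartile scaling, 1 with forward-strand counts, 2 in the 6 libraries and 2 to 5 without 1 library; 1 fell, but 0 did with upper-quartile scaling, with library totals alone and in the 6 libraries, 3 with the sum of shared rows as library size and with forward-strand counts, 2 with the replicate block and 0 to 3 without 1 library. Of the replication genes 2 to 4 rose and none fell. The values of Prim2 and Nabp1, which had not passed, changed sign, Prim2 with forward-strand counts (log2 fold change -0.0062) and Nabp1 with upper-quartile scaling (0.0095) and forward-strand counts (0.020). For settings other than fewer samples the cause was not tested.

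Libraries of the 2 groups share replicate numbers, but same-numbered libraries did not deviate together (correlations of -0.0056, 0.067, -0.086 and -0.088 over 321 genes), nor did each library correlate best with its own number, so the numbers were not taken as pairs. With the replicate block 150 genes were called, against 158. The fit that holds Nuf2 and the upper limit of the library total were added after the data had been seen.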
